A study of Mus musculus with 8 samples.

Results

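miR-126a is a miRNA best known from endothelial cells, and its hairpin releases a mature miRNA from each arm, mmu-miR-126a-3p and mmu-miR-126a-5p. Both arms were taken by name from the table of mature miRNA counts, as 2 of its 1978 mouse miRNAs, and both were among the 180 miRNAs that had at least 1 read in 2 or more cell libraries and in 2 or more EV libraries. They were followed here across 3A cells, hepatocytes of the mouse grown as a line that does not form tumours, and the extracellular vesicles (EVs) collected from their medium. The libraries formed 4 groups of 2 biological replicates, made up of cells and of EVs with each of the shRNAs shCTR and shPCBP2. All cells had been infected with a retroviral vector and selected with 2 µg/mL puromycin. The shRNA of shCTR was scrambled, and that of shPCBP2 was directed at PCBP2, an RNA-binding protein that the study examined for its role in how miRNAs are divided between cells and EVs. EVs came from medium that the cells had conditioned for 72 h, in which the serum had been depleted of EVs. The PCBP2 transcript is not measured by small RNA libraries, so the knockdown could not be checked from these data. The shPCBP2 line was newly made for the study, while the shCTR line had been made earlier. A difference between these lines and an effect of the knockdown therefore cannot be told apart here.

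miRNAs are cut from a folded precursor by Drosha and Dicer, and 1 arm or the other is then loaded into an Argonaute protein, where bases 2 to 8 (the seed) pair with target mRNAs. miR-126 lies within Egfl7, a gene for a protein secreted by endothelium. In vessels the 3p arm is known to lower inhibitors of VEGF signalling such as Spred1, and also Vcam1, while the 5p arm is known to lower Dlk1. Hepatocytes are not known as a main source of miR-126. Since no mRNA was measured and the miRNAs typical of endothelium are the arms themselves, the endothelial label could not be checked in these libraries, and they are called the miR-126a arms below.

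The sequences are shown because the arms face each other in the same hairpin, and because a neighbouring miRNA, miR-126b, is read from the opposite strand of the same place. RefSeq, on the GRCm38.p6 build, gave the Mir126a hairpin (73 bases, chr2:26591357-26591429, plus strand) and a mature sequence for 1 of the 2 arms (chr2:26591402-26591423, plus strand), along with both arms of miR-126b (chr2:26591363-26591385 for the 3p arm and chr2:26591399-26591420 for the 5p arm, minus strand). In the hairpin the capitals mark the 3p arm, at bases 46 to 67, and in the mature miRNAs they mark the seed.
Mir126a hairpin: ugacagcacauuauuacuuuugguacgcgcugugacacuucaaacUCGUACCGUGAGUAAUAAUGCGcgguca
mmu-miR-126a-3p: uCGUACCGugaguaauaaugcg
mmu-miR-126b-3p: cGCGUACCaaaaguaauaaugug
mmu-miR-126b-5p: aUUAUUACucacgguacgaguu
The 3p sequence occurred in 1 of 1005 mouse hairpins of RefSeq and its seed in 1 of 1738 mature entries. None of the other hairpins searched holds this arm on the same strand. The reverse complement of miR-126b-3p matched bases 7 to 29 of the Mir126a hairpin without a mismatch, in the 5′ arm. miR-126a-3p and miR-126b-5p shared 19 bases on opposite strands. Whether the counting used the strand is not given in the sources used here, and without strand the reads of these partners cannot be told apart. miR-126b-3p had 8, 17, 0 and 26 reads in the cell libraries, and 0 in the 4 EV libraries, which allows up to 4.36 to 5.96 reads per 1000000 mouse miRNA reads there. miR-126b-5p had 0 reads in the 8 libraries.

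The hairpin lies inside Egfl7 (chr2:26580014-26593120, plus strand). In the GENCODE annotation of GRCm38 it falls in an intron of 8 of the 19 Egfl7 transcripts and overlaps an exon of 1, a transcript with a retained intron. Short RNA motifs tied to EV export or cell retention of miRNAs were searched as exact letters on the RNA strand alone. AUUA and AUUG are the forms of the core CELL motif, a retention motif, named in the study. The study scanned motifs as probability matrices, so an exact search need not give the same matches. GGCU, searched beside them, is not named there as a motif. hEXO, an export motif of the study, allows several letters at each position, so a search for GGCU cannot show whether it is present. AUUA, AUUG and GGCU were not among the letters of miR-126a-3p, and they were present in 2.5%, 6.79% and 13.3% of the 1679 mature mouse sequences searched. AUUA stood at bases 10 and 13 of the hairpin, overlapping itself, in the 5′ arm. RefSeq gave no mature sequence for miR-126a-5p, so this arm was searched only as part of the hairpin. Whether these AUUA matches lie within mature miR-126a-5p was not determined. AUUG and GGCU had no match in the hairpin.

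The libraries held 26391248 to 38166798 counted reads, most of them from cel-miR-39, a nematode miRNA added to each sample as a spike-in. Mouse miRNAs took 33.1 to 42.6% of the reads in cells and 1.62 to 2.42% in EVs, which left 8745848 to 12732173 mouse reads per cell library and 503070 to 687592 per EV library. Levels are given as reads per 1000000 spike-in reads (spike-in RPM), the scale of the study, and beside them as reads per 1000000 mouse miRNA reads (mouse RPM). The first scale carries the amount of sample that went into each library, so a smaller number of cells or EVs and less miRNA in each cannot be told apart. Precision from counting alone was not the limit, since each arm had at least 369 reads in every library, while the replicates of a group differed by more than counting error.

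miR-126a-3p had 2108 and 2218 reads in shCTR cells and 1524 and 1829 in shPCBP2 cells, against 1986 and 1748 in the EVs of shCTR and 2827 and 2824 in those of shPCBP2. In spike-in RPM these were levels of 118 and 141, 86.4 and 103, 71.5 and 67.1, and 75.3 and 92.9 in the same order. The highest levels of this arm were thus in cell shCTR and the lowest in EV shCTR, and the range over all 8 libraries was narrow. The means with shCTR were 130 ± 16.0 in cells and 69.3 ± 3.10 in EVs, and with shPCBP2 94.5 ± 11.5 and 84.1 ± 12.4 (spike-in RPM, SD, n = 2). Going up from EV shCTR, EV shPCBP2 was 1.21 times higher with no overlap between replicates, cell shPCBP2 was 1.12 times higher than EV shPCBP2 with overlap, and cell shCTR was 1.37 times higher than cell shPCBP2 with no overlap.

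miR-126a-5p had 606 and 451 reads in shCTR cells and 422 and 369 in shPCBP2 cells, against 1377 and 3126 in the EVs of shCTR and 977 and 1204 in those of shPCBP2. The levels in spike-in RPM were 34.0 and 28.7, 23.9 and 20.7, 49.6 and 120, and 26.0 and 39.6. All 4 cell libraries were low, and replicate 2 of EV shCTR stood far above its partner and above every other library. The means with shCTR were 31.3 ± 3.78 in cells and 84.8 ± 49.8 in EVs, and with shPCBP2 22.3 ± 2.27 and 32.8 ± 9.60 (SD, n = 2). Going up from cell shPCBP2, cell shCTR was 1.40 times higher with no overlap, EV shPCBP2 was 1.05 times higher than cell shCTR with overlap, and EV shCTR was 2.59 times higher than EV shPCBP2 with no overlap. The order of the groups therefore differed between the arms, with the EVs at the bottom for 3p and at the top for 5p.

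**Figure D1:**
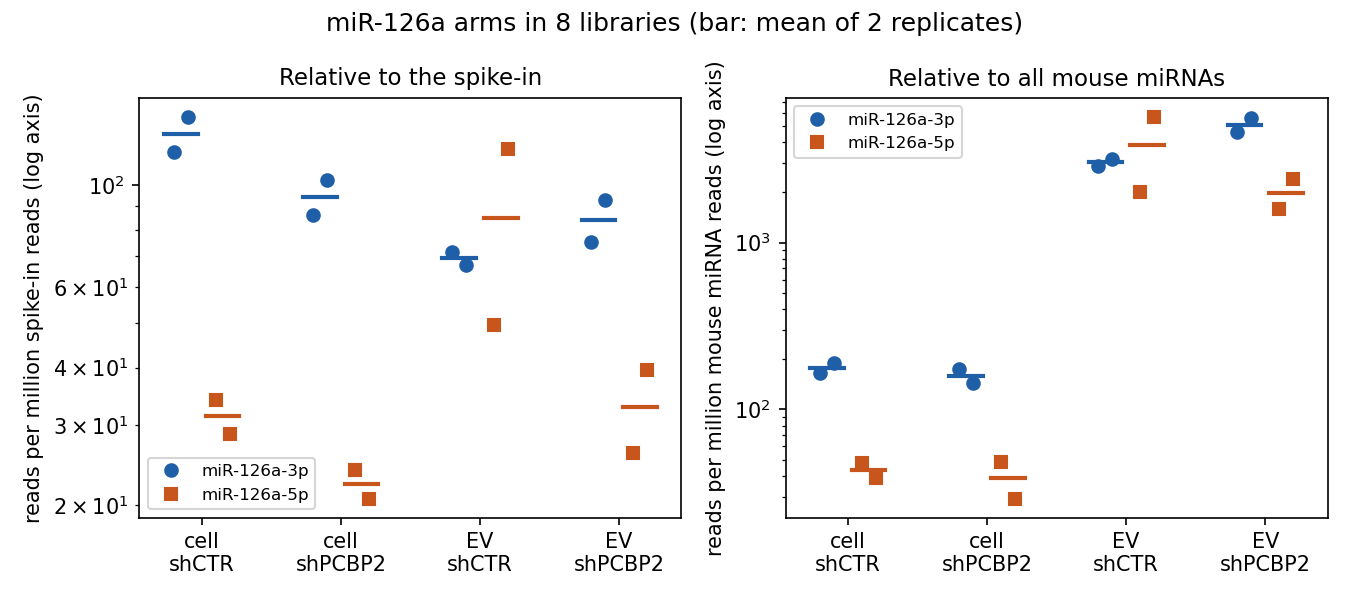
Levels of miR-126a-3p (circles) and miR-126a-5p (squares) in each library of the 4 groups, on log axes, as reads per 1000000 spike-in reads (left) and per 1000000 mouse miRNA reads (right), with bars at the mean of 2 replicates. On the left the 3p arm stays between 67.1 and 141, and on the right every EV library lies above every cell library for both arms.

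As a share of the mouse miRNAs, both arms stood much higher in EVs. miR-126a-3p took 166 and 190 mouse RPM in shCTR cells and 174 and 145 in shPCBP2 cells, against 2888 and 3158 in the EVs of shCTR and 4570 and 5614 in those of shPCBP2. miR-126a-5p took 47.6 and 38.6, 48.3 and 29.2, 2003 and 5647, and 1579 and 2393 in the same order. No EV library overlapped a cell library for either arm. For the 5p arm in replicate 2 of EV shCTR, the 95% Wilson interval was 5453 to 5848 mouse RPM, which covers counting error only and does not reach the other replicate. Ordered by count within a library, the 3p arm was at rank 119 to 128 in cells and 44 to 56 in EVs, and the 5p arm at rank 161 to 175 in cells and 39 to 70 in EVs. The cell libraries had reads for 466 to 599 miRNAs and the EV libraries for 183 to 202.

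The EV/cell ratio was then tested relative to the spike-in with edgeR's quasi-likelihood test across the 180 miRNAs. In shCTR, the log2 EV/cell ratio of miR-126a-3p was -0.90 ± 0.49 (SE; 95% interval -2.09 to 0.28; edgeR adjusted p = 0.141), and that of miR-126a-5p was 1.44 ± 0.72 (-0.32 to 3.19; adjusted p = 0.121). In shPCBP2 the values were -0.17 ± 0.48 for 3p (-1.35 to 1.01; edgeR adjusted p = 0.764) and 0.56 ± 0.71 for 5p (-1.17 to 2.28; adjusted p = 0.510). Neither arm passed the threshold of an adjusted p under 0.05 in shCTR or in shPCBP2, although the arms lay on opposite sides of 0. By the same test 119 of the 180 miRNAs, or 66.1%, differed between EVs and cells in shCTR, 12 of them higher in EVs and 107 lower, and 122, or 67.8%, in shPCBP2, 14 higher and 108 lower. DESeq2 on the same scale gave the same ratios in shCTR and called both arms there, with adjusted p = 0.00214 for 3p and 0.0357 for 5p. Without replicate 2 of EV shCTR, the 5p ratio in shCTR was 0.66 (edgeR adjusted p = 0.439).

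Both arms nevertheless ranked among the higher EV/cell ratios of the table. The median log2 EV/cell ratio over all 180 miRNAs was -4.93 in shCTR and -4.90 in shPCBP2, and 25 of the 180 had a ratio above 0 with each shRNA. From the highest ratio down, miR-126a-5p ranked 18 and miR-126a-3p ranked 31 of 180 in shCTR, and 25 and 28 in shPCBP2. Above the median of all miRNAs, the 3p arm lay by 4.03 in shCTR and 4.73 in shPCBP2, and the 5p arm by 6.37 and 5.45 (log2 units).

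**Figure D2:**
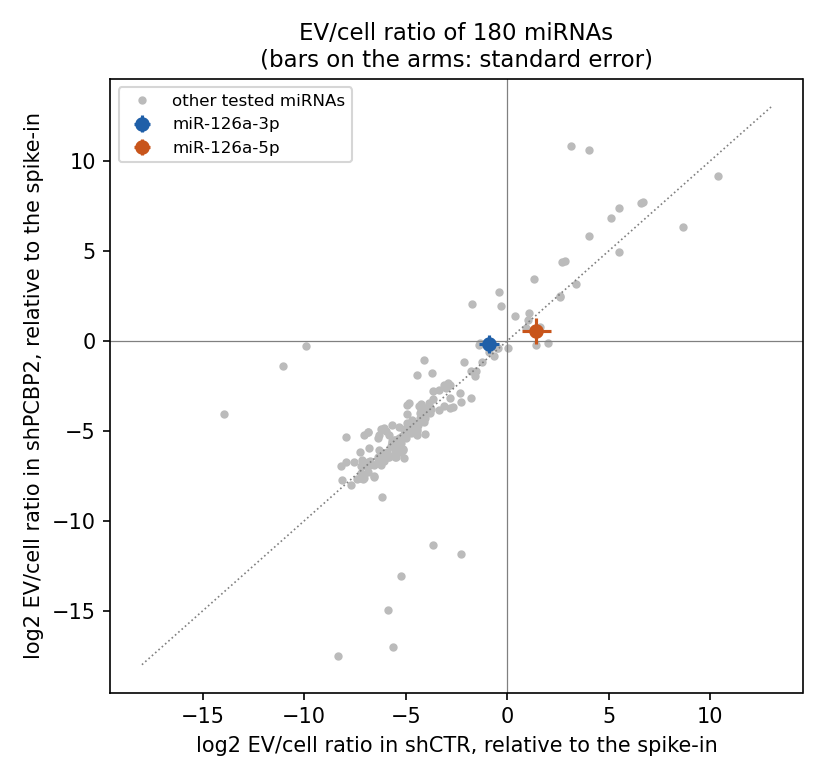
Log2 EV/cell ratio relative to the spike-in for the 180 tested miRNAs, in shCTR (horizontal axis) against shPCBP2 (vertical axis), with standard errors drawn on the miR-126a arms and a dotted line of equal ratios. Both arms sit near 0, at the upper edge of the main cloud, whose medians are -4.93 and -4.90.

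The direction for miR-126a-3p and the calls for both arms depended on the scaling. With TMM factors, the log2 EV/cell ratio in shCTR was 3.87 for 3p (edgeR adjusted p = 0.000111) and 6.23 for 5p (adjusted p = 0.000746), and in shPCBP2 4.38 (5.67e-05) and 5.08 (0.000997). With these factors 42 miRNAs were called higher in EVs and 40 lower in shCTR, and 42 and 45 in shPCBP2. Scaling by median of ratios or by the total mouse miRNA count also put both arms higher in EVs. These scalings moved the median of all 180 miRNAs from -4.93 to between -0.17 and 0.06 in shCTR, and from -4.90 to between -0.33 and 0.30 in shPCBP2. The distance from that median was nearly the same under the 4 scalings. It was 4.03 to 4.04 for 3p and 6.37 to 6.43 for 5p in shCTR, and 4.70 to 4.73 and 5.38 to 5.45 in shPCBP2. This follows by construction, since a scaling moves all miRNAs nearly alike, and it adds no separate support. Relative to the spike-in, the difference between EVs and cells thus did not pass edgeR's test for either arm, while relative to the other miRNAs both arms were higher in EVs.

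**Figure D3:**
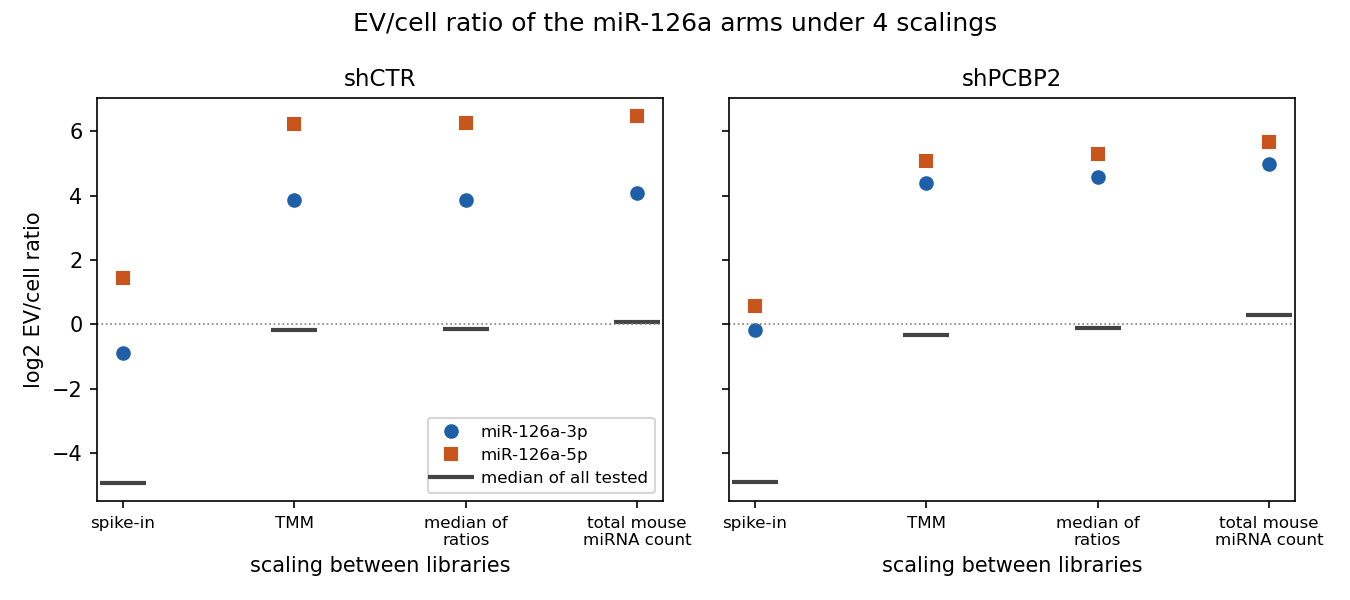
Log2 EV/cell ratio of miR-126a-3p (circles) and miR-126a-5p (squares) in shCTR (left) and shPCBP2 (right) under 4 scalings of the libraries, with the median of the 180 tested miRNAs as a bar. The arms and the median shift together, so that 3p is at -0.90 with the spike-in and at 3.87 with TMM factors in shCTR.

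The balance between the arms does not depend on the scaling, because it is a ratio of reads within a library, although capture of the arms by the library kit may be unequal. In cells the 3p arm was the major one. It made up 77.7% (95% Wilson interval 76.1 to 79.2) and 83.1% (81.6 to 84.5) of the reads of both arms in the cell shCTR libraries, and 78.3% (76.4 to 80.1) and 83.2% (81.6 to 84.7) in cell shPCBP2. In EVs it made up 59.1% (57.4 to 60.7) and 35.9% (34.5 to 37.2) with shCTR, and 74.3% (72.9 to 75.7) and 70.1% (68.7 to 71.5) with shPCBP2, on 1946 to 4874 reads per library. The 4 EV libraries were all below the 4 cell libraries, and in replicate 2 of EV shCTR the 5p arm was the more abundant one.

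As log2 of 3p over 5p reads, with 0.5 added to each count, the ratio was 1.80 and 2.30 in shCTR cells and 1.85 and 2.31 in shPCBP2 cells, against 0.53 and -0.84 in the EVs of shCTR and 1.53 and 1.23 in those of shPCBP2. The mean was 2.06 ± 0.28 in the 4 cell libraries and 0.61 ± 1.06 in the 4 EV libraries (SD), that is 4.18 and 1.53 reads of 3p for each read of 5p. The difference of -1.45 gave a 2-sided exact permutation p of 0.0286, the smallest that 70 arrangements of 4 against 4 allow, and this test takes libraries with shCTR and shPCBP2 together. Among the 21 hairpins with both arms tested, the median shift from cells to EVs was 0.10. miR-126a had the 6th lowest shift, and it was 1 of 4 hairpins, or 19%, whose EV libraries were all below all cell libraries, beside miR-125a, miR-28a and miR-99b, while 4 others lay the opposite way. The shift rested in part on replicate 2 of EV shCTR, without which it was -0.97 (exact permutation p = 0.0286). Leaving out any 1 of the cell libraries kept the shift between -1.54 and -1.37 but ended the call, with an exact permutation p of 0.0571 without replicate 1 of cell shCTR or of cell shPCBP2 and 0.0857 without replicate 2 of either, where 0.0286 was the smallest possible.

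**Figure D4:**
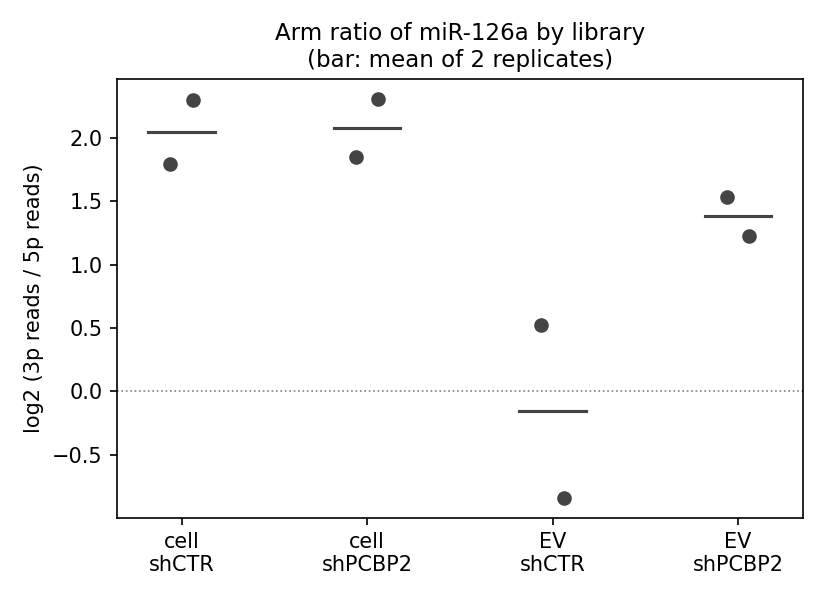
Log2 ratio of miR-126a-3p to miR-126a-5p reads in each of the 8 libraries (points), with bars at the mean of 2 replicates and a dotted line where both arms are equal. The cell libraries lie between 1.80 and 2.31 and the EV libraries between -0.84 and 1.53.

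Tested with limma over the 21 hairpins, the shift of the miR-126a arm ratio from cells to EVs was -2.20 ± 0.75 in shCTR (SE; 95% interval -4.11 to -0.30; limma adjusted p = 0.130). In shPCBP2 it was -0.70 ± 0.75 (-2.61 to 1.21; limma adjusted p = 0.591). Neither passed the threshold after adjustment, and the interval of the first, which is not adjusted, did not include 0. In all, 1 of the 21 hairpins, or 4.76%, was called in shCTR and 3, or 14.3%, in shPCBP2. Without replicate 1 of EV shCTR, and likewise over only the 6 hairpins with at least 10 counts in every library, the shCTR shift passed the threshold, with -2.89 (limma adjusted p = 0.0392) and -2.20 (0.00362). Without replicate 2 of EV shCTR it was -1.52 (limma adjusted p = 0.138).

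The comparison of shPCBP2 with shCTR asks whether the EV/cell ratio of each arm differed between the silenced and the control line. The log2 EV/cell ratio of miR-126a-3p was 0.73 ± 0.68 higher in shPCBP2 (95% interval -0.93 to 2.40; edgeR adjusted p = 0.992), and that of miR-126a-5p differed by -0.88 ± 1.00 (-3.32 to 1.56; adjusted p = 0.992). The arms pointed in opposite directions, and neither difference passed the test. Of the 180 miRNAs, 4, or 2.22%, passed this test, namely miR-129-2-3p, miR-296-5p, miR-345-3p and miR-872-5p, which were chosen for mention after their values were seen. The median difference over all 180 was -0.08. Without replicate 2 of EV shCTR, the difference for the 5p arm was -0.11.

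Within EVs, miR-126a-3p was at 71.5 and 67.1 spike-in RPM with shCTR and at 75.3 and 92.9 with shPCBP2, a log2 difference of 0.28 ± 0.48 (-0.90 to 1.46; edgeR adjusted p = 0.844). miR-126a-5p was at 49.6 and 120 with shCTR and at 26.0 and 39.6 with shPCBP2, a log2 difference of -1.37 ± 0.72 (-3.12 to 0.38; edgeR adjusted p = 0.404). The replicates did not overlap for either arm, but neither difference passed the test, and the intervals include both no change and a change of more than 1 log2 unit. By the same test 13 of the 180 miRNAs, or 7.22%, differed, 3 of them higher and 10 lower, with a median of -0.54. Without replicate 2 of EV shCTR the difference for 5p was -0.60.

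Within cells, both arms were somewhat lower with shPCBP2, by log2 differences of -0.46 ± 0.48 for 3p (-1.64 to 0.72; edgeR adjusted p = 0.906) and -0.49 ± 0.71 for 5p (-2.22 to 1.24; adjusted p = 0.938). The median of all 180 miRNAs was -0.49, and with TMM factors they were 0.05 for each arm. edgeR called 0 of the 180, or 0%, with 25 at an unadjusted p under 0.05, and DESeq2 called 18, neither arm among them. The arm ratio in cells differed between the shRNAs by 0.03 ± 0.75 (limma adjusted p = 0.991), with 0 of 21 hairpins called, or 0%, and 0 at an unadjusted p under 0.05. In EVs it was 1.54 ± 0.75 higher with shPCBP2 (-0.37 to 3.44; limma adjusted p = 0.282), where 2 of 21 hairpins, or 9.52%, were called. This difference was 0.85 without replicate 2 of EV shCTR and 2.22 without replicate 1 (limma adjusted p = 0.419 and 0.0553), and it passed the threshold over the 6 hairpins with at least 10 counts in every library (limma adjusted p = 0.0431). The difference between the EV/cell shifts of the arm ratio was 1.50 ± 1.06 (-1.19 to 4.20; limma adjusted p = 0.591), again with 2 of 21, or 9.52%, called. It was 0.82 without replicate 2 of EV shCTR and 2.19 without replicate 1 (limma adjusted p = 0.520 and 0.129).

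Markers of other cell types also differed between EVs and cells. Of 8 miRNAs typical of blood cells, 4 were tested and all 4 were higher in EVs in both shCTR and shPCBP2, against 12 and 14 of all 180, with a median log2 EV/cell ratio of 6.65 and 7.68 against -4.93 and -4.90 over all 180. Their summed level was 8.56 to 27.7 spike-in RPM in cells and 2135 to 2806 in EVs. Both this sum and the 4 tested include miR-486a-5p and miR-486b-5p, whose reads may be counted in both. The medians in shCTR and in shPCBP2 are each the middle of this pair. miR-451a and miR-144-3p of red cells, and miR-142a-3p and miR-142a-5p of white cells, had 0 reads in the 4 cell libraries, and are named for that. miR-486a-5p, the most abundant of the list, had 193, 155, 68 and 85 reads in cells and 30647, 26695, 34143 and 26618 in EVs, although its reads may be shared with the near-identical miR-486b-5p. miR-451a, processed without Dicer in red cells, had 4430, 3667, 3595 and 4119 reads in the EV libraries. Their part in the values of the miR-126a arms was not tested.

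Of 5 miRNAs typical of the vessel wall and mesenchyme, 4 were tested and all 4 were higher in EVs in both shCTR and shPCBP2, again against 12 and 14 of all 180, with a median of 2.99 in shCTR and a summed level of 6.63 to 21.8 spike-in RPM in cells and 83.9 to 173 in EVs. miR-199a-5p, the member not tested, had 0, 21, 3 and 0 reads in cells and 94, 0, 0 and 0 in EVs. miR-199a-3p, the most abundant of the list, had 208, 149, 93 and 191 reads in cells and 2475, 1000, 1560 and 1409 in EVs. miR-143-3p, a miRNA of smooth muscle, had 138, 42, 21 and 47 reads in cells and 1445, 601, 1045 and 1650 in EVs. No median is given for shPCBP2, because miR-214-3p and miR-145a-5p were at 0 in its cells and their fitted ratios rest on the prior count. Of 4 hepatocyte miRNAs, 3 were tested, and miR-194-5p and miR-192-5p were lower in EVs in shCTR, by log2 ratios of -6.84 and -5.62 (edgeR adjusted p = 4.16e-06 and 0.0171), as they were in shPCBP2. Of all 180 miRNAs, 107 were called lower in EVs in shCTR and 108 in shPCBP2. The median of the 3 was -5.62 in shCTR and -6.73 in shPCBP2, against -4.93 and -4.90 over all 180. miR-122-5p, the most typical miRNA of adult hepatocytes, was low in cells, with 455, 485, 356 and 469 reads, and had 2327, 795, 1556 and 1872 in EVs (log2 ratio 1.02 ± 0.75 in shCTR, edgeR adjusted p = 0.251). miR-122-3p was at 0 in every library, and the summed level of the hepatocyte list was 13024 to 20407 spike-in RPM in cells and 184 to 293 in EVs. None of the tested miRNAs of the 3 lists differed in EV/cell ratio between shPCBP2 and shCTR by edgeR. Within EVs, edgeR called 1 hepatocyte miRNA lower with shPCBP2, against 10 of all 180. miR-192-5p had 1058 and 62 reads in the EVs of shCTR and 0 and 0 in those of shPCBP2. Its fitted EV/cell ratio in shPCBP2 thus rests on the prior count. The part of these cell types in the values of the miR-126a arms was not tested.

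Over the 8 libraries, the miRNAs whose level in log2(spike-in RPM + 1) followed each arm most closely were found among 165 with a mean count of at least 100. For miR-126a-3p they were miR-350-3p, miR-328-3p, miR-106a-5p, miR-125a-5p and miR-345-3p, with Pearson correlations of 0.89, 0.88, 0.87, 0.86 and 0.86. Their log2 EV/cell ratios in shCTR were -4.43, -11.03, -8.17, -3.14 and -13.95, against -0.90 for this arm. Those of miR-328-3p and miR-345-3p rest on the prior count, with 0 reads in the EVs of shCTR. A high correlation thus did not mean a similar EV/cell ratio. For miR-126a-5p they were miR-339-5p, miR-494-3p, miR-379-5p, miR-214-3p and miR-150-5p, with 0.80, 0.72, 0.69, 0.68 and 0.67. Their ratios in shCTR were 0.94, 4.03, 8.67, 3.12 and 5.51, against 1.44 for this arm. The arms themselves correlated at -0.54, and no miRNA was among the 5 of both. The points share libraries and 1 scaling and fall into cells and EVs, so these values are a description.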

How the data were processed

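Small RNA was measured in 8 libraries, grouped by their titles, whose replicate numbers differ from those of the descriptions for shPCBP2. The authors trimmed the reads, kept the forward ones for alignment by mirPRo (with NovoAlign) against the spike-in and the hairpins of miRBase, and deposited raw counts per mature miRNA, not normalized. No molecular identifiers are stated, so intervals and floors cover counting error only.

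From these counts, edgeR 4.0.16 quasi-likelihood tests (R 4.3.3) were run on 4 groups, with spike-in counts as library sizes and a prior count of 0.125, over miRNAs with at least 1 read in 2 cell and 2 EV libraries. Arm ratios (pseudocount 0.5) were tested with limma 3.58.1 and an exact permutation test, and Wilson intervals came from scipy 1.17.1. p-values were adjusted by Benjamini-Hochberg over all features of a contrast, and SEs come from the F statistic. DESeq2 (the tool of the study, here version 1.42.0), other scalings, filters, pseudocount 5, a replicate block and each library left out were alternatives. The arms and the lists of hepatocyte, blood cell and vessel wall miRNAs were chosen with earlier results of these data known. Named miRNAs were the arms, up to 5 of each list in order of mean count, blood cell members at 0 in cells, and the 5 most alike to each arm. The scripts were tested on simulated data.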

Additional observations from a re-analysis of the deposited data

How the results depend on the processing

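The EV/cell ratio of the arms was the value most changed by the processing. For miR-126a-3p the log2 ratio in shCTR was 3.87 with TMM factors, 3.88 when scaled by median of ratios and 4.09 by the total mouse miRNA count, against -0.90 with the spike-in, and in shPCBP2 it was 4.38, 4.59 and 5.00 against -0.17. For miR-126a-5p these scalings gave 6.23, 6.27 and 6.47 in shCTR and 5.08, 5.29 and 5.68 in shPCBP2, all past the threshold. The shift in the median of all miRNAs accounts for this by construction. With spike-in size factors, DESeq2 called both arms in shCTR, at -0.90 (adjusted p = 0.00214) and 1.44 (adjusted p = 0.0357), and edgeR over only the 113 miRNAs with at least 10 counts in every library called 5p at 1.44 (adjusted p = 0.0238). Without replicate 2 of EV shCTR the 5p ratio in shCTR was 0.66. With TMM factors the change in cells was 0.050 for 3p and 0.053 for 5p.

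The difference in EV/cell ratio between the shRNAs ranged over all alternatives from 0.52 to 0.91 for 3p (adjusted p 0.194 to 1.00) and from -1.38 to -0.11 for 5p (0.565 to 1.00), and the difference within EVs from 0.12 to 0.75 and from -1.87 to -0.60, and none was called. For the arm ratio, the filter of 10 counts gave a called shift of -2.20 in shCTR and a called difference of 1.54 in EVs, over 6 hairpins. With 1 library left out, the shift in shCTR ranged from -2.89 to -1.52, the difference in cells from -0.22 to 0.28, and the permutation difference from -1.76 to -0.97 (exact p 0.0286 to 0.0857). That difference was -2.20 in shCTR alone and -0.70 in shPCBP2 alone (exact p = 0.333, the smallest possible for each), and -1.45 with the replicate block (exact p = 0.125, the smallest of 16 arrangements). The labels do not say whether libraries with the same replicate number share a culture. The replicate differences of the groups, by title number, correlated at -0.08 to 0.09 over 180 miRNAs. With 2 replicates per group this cannot decide whether they are paired. Counts of called miRNAs also moved. In shCTR the 119 for the EV/cell ratio became 76 by median of ratios, 75 by the total and 294 without a filter, and the 122 in shPCBP2 became 294 without one. The 4 for the difference between shRNAs became 13 with TMM factors, 14 with DESeq2 and 0 with at least 10 counts, the 13 in EVs became 27 with DESeq2 and 2 with the block, and the 0 in cells became 5 with TMM factors and 18 with DESeq2. Of called hairpins, the 1 in shCTR became 4 with at least 10 counts and 21 without a filter, and the 3 in shPCBP2 became 26 without one.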
